A study of Mus musculus with 12 samples.

Results

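The genes described here are 8 genes of corticosteroid and corticotropin-releasing hormone (CRH) signalling in the mouse hippocampus, chosen by name: Nr3c1, Nr3c2, Fkbp4, Fkbp5, Hsd11b1, Crh, Crhr1 and Crhbp. They are 8 of 35580 genes with a transcript in the table, and all 8 were among the 18434 genes that passed the filter on low values. Hippocampal RNA came from 12 male C57BL/6 mice aged 70 days after birth, 3 in each of 4 groups. Control mice received neither exposure. Ethanol mice were born to dams with voluntary access to 10% ethanol. Stress mice underwent maternal separation lasting 3 h daily between postnatal days 2 and 14, and ethanol + stress mice received both exposures. The pups of a litter were divided between separation and no separation, and the litter of each mouse is not given in the labels, so p values measure the spread between these mice. The libraries were stranded and made from total RNA depleted of rRNA. Whole hippocampus mixes cell types, so fewer cells of a type and less RNA per cell cannot be told apart.

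Corticosterone crosses the blood-brain barrier and binds 2 nuclear receptors in hippocampal neurons, the mineralocorticoid receptor with high affinity and the glucocorticoid receptor with lower affinity. Both are held ready for hormone by a chaperone complex in which the co-chaperones encoded by Fkbp4 and Fkbp5 compete, and Fkbp5 is itself induced by glucocorticoids. The hippocampus takes part in feedback inhibition of the hypothalamic-pituitary-adrenal axis, and some of its interneurons make CRH.

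The values are kallisto TPM of single transcripts, which correct abundance for transcript length and which the authors had scaled between libraries. They were summed per gene, and differences are given on the scale of log2(TPM + 0.5) with a 95% interval. Features with an unadjusted p under 0.01 in limma were called, which is the threshold of the study. The sums of the values ran from 889222 to 1173649.8 per library, and the depth recovered from the steps of low values ran from 12060000 to 14950000 read pairs. Ethanol replicate 2 and ethanol + stress replicates 2 and 3 had the highest sums, from 1126489.7 to 1173649.8, against 889222 to 1024268.5 in the 9 other libraries. In the same 3 libraries short genes (under 1000 bp) stood higher relative to long genes (over 4000 bp), by 0.29 to 0.39 on the log2 scale, against -0.28 to 0.13 in the 9 others. No control or stress library was among the 3. Leaving them out keeps 3 control, 2 ethanol and 3 stress mice but only 1 ethanol + stress mouse, replicate 1, which the fit then assumes to vary like the other groups. An ethanol + stress value without the 3 libraries is therefore that mouse against control, and a call lost or gained there says little. Summed markers of hippocampal neurons were detected in every library, from 69.3 to 113 TPM for dentate granule cells, 182 to 266 TPM for CA1, 391 to 528 TPM for CA2 and 85.7 to 144 TPM for CA3 pyramidal cells. Summed choroid plexus markers ranged from 40.1 to 7228 TPM and summed blood markers from 1603 to 6815 TPM. The blood sums were 1603 to 2022 TPM in the 3 control mice and 2454 to 6815 TPM in the 9 treated mice, so every treated group lay above control, and the part of this in the differences from control given here was not tested.

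The 8 genes spanned a wide range of levels. Fkbp4 was highest, with a mean gene sum of 115 ± 11.2 TPM (SD, n = 12), followed by Nr3c2 with 91.8 ± 10.4, Hsd11b1 with 57.3 ± 10.1 and Nr3c1 with 50.1 ± 3.34. Crhbp at 29.9 ± 2.43 TPM and Fkbp5 at 29.3 ± 4.18 TPM came next, and Crhr1 at 6.99 ± 1.19 TPM and Crh at 2.25 ± 0.48 TPM were lowest. Every mouse had more Fkbp4 than Nr3c2, more Nr3c2 than Hsd11b1, and more Nr3c1 than Crhbp. Hsd11b1 exceeded Nr3c1 in 8 of 12 mice and Crhbp exceeded Fkbp5 in 9 of 12, so those neighbours did not separate in every mouse. Nr3c1 varied least between mice, with a coefficient of variation of 6.66%, and Crh most, with 21.6%. Crh rested on 13 to 30 read pairs per library, and counting error alone at that depth gives a coefficient of variation of 21.7%.

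**Figure D1:**
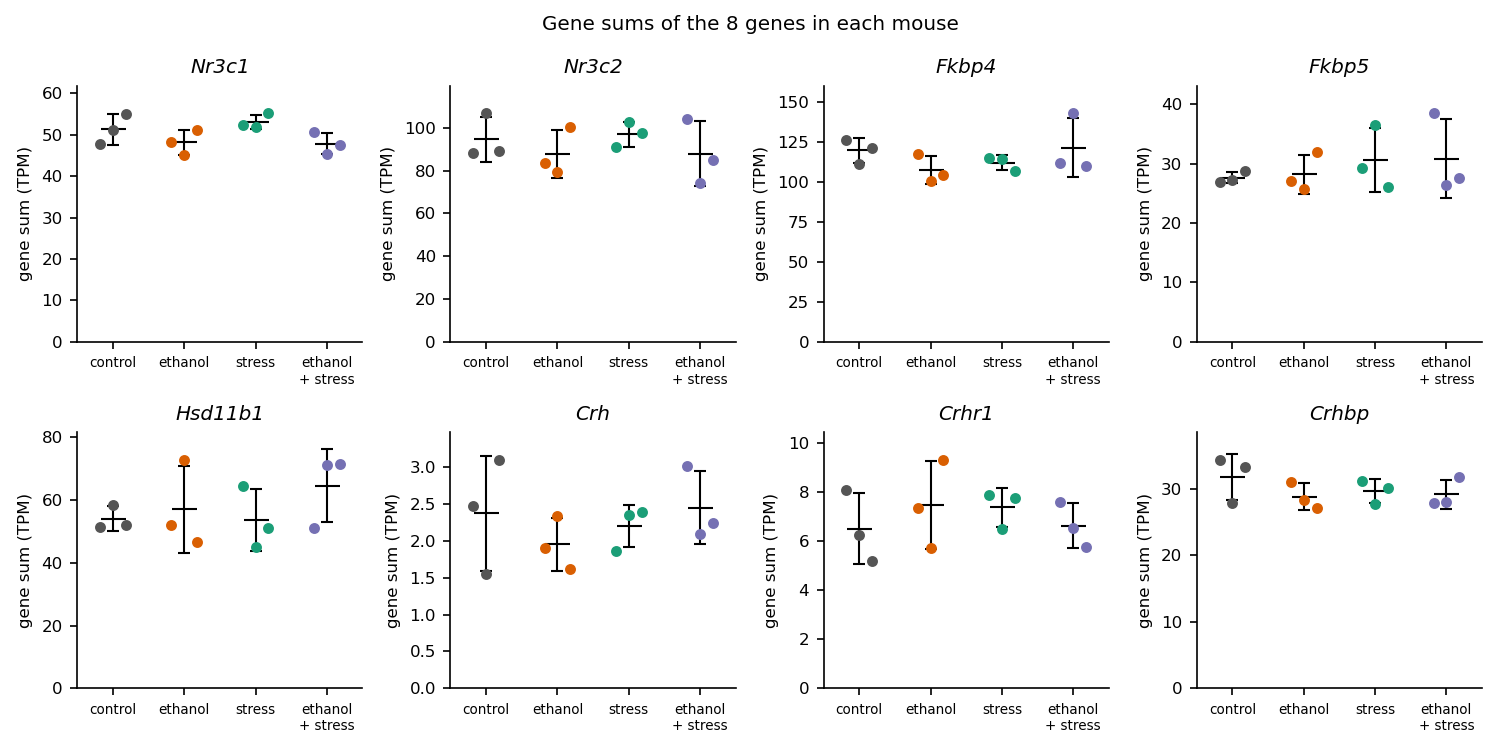
Gene sums in TPM (vertical axis, from 0) of each of the 8 genes by group, with control, ethanol, stress and both exposures from left to right. Points are mice, horizontal bars are group means and error bars are the SD (n = 3). In each panel the points of every treated group overlap the range of the control points, and 0 of the 8 genes separate from control.

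The first question was whether either exposure, or both together, left a difference in these genes in adult mice. In no comparison was a gene called. Ethanol against control gave 0 of 8, beside 0.678% of all tested genes called, stress against control gave 0 of 8, beside 0.51%, and ethanol + stress against control gave 0 of 8, beside 0.971%. The interaction of ethanol and stress also gave 0 of 8, beside 0.461%. None of the 8 had an unadjusted p under 0.05 in any of these 4 contrasts, and the limma adjusted p was at least 0.997 for ethanol, 0.9998 for stress and 0.791 for ethanol + stress. No gene's treated values lay wholly outside the control values either, with 0 of 8 beside 8.25% of all genes for ethanol, 0 of 8 beside 7.2% for stress and 0 of 8 beside 10.2% for ethanol + stress. With 3 mice a group, a p above the threshold does not show that levels were equal, and the intervals give the size of change that remains possible. The median difference of the 8 genes was -0.10 for ethanol, 0.01 for stress and 0.02 for ethanol + stress, where the medians of all tested genes were 0.02, 0.004 and 0.02.

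**Figure D2:**
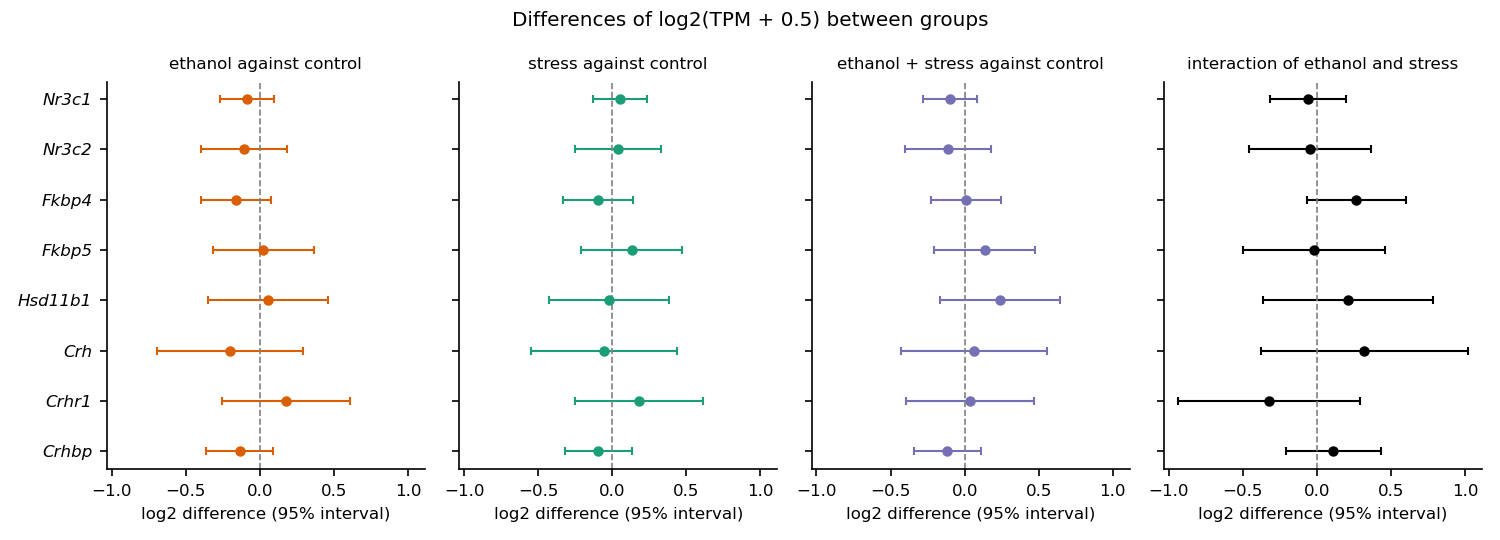
Differences of log2(TPM + 0.5) between groups (horizontal axis) for the 8 genes (vertical axis), with points for limma estimates and bars for 95% intervals, in 4 panels for the 3 treated groups against control and for the interaction. Every interval includes 0, from the narrow ones of Nr3c1 to the wide ones of Crh and Crhr1.

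Nr3c1, the glucocorticoid receptor gene, was the most precisely measured of the 8. Its gene sums were 47.7, 51.2 and 55.2 TPM in control mice and 48.3, 45.2 and 51.1 TPM in ethanol mice. They were 52.3, 51.9 and 55.2 TPM in stress mice and 50.7, 45.5 and 47.5 TPM in ethanol + stress mice. All groups overlapped control. The log2 difference was -0.09 (95% interval -0.27 to 0.09) for ethanol, 0.05 (-0.13 to 0.23) for stress and -0.10 (-0.28 to 0.08) for ethanol + stress. As folds, these intervals reach no lower than 0.823 and no higher than 1.18 times control. Without the 3 libraries with the highest totals the difference was -0.043 for ethanol and, for the 1 remaining ethanol + stress mouse, -0.015.

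Nr3c2, the mineralocorticoid receptor gene, had gene sums of 88.0, 107 and 89.0 TPM in control mice and 83.7, 79.4 and 100.5 TPM in ethanol mice. Stress mice had 91.0, 103 and 97.3 TPM, and ethanol + stress mice had 104, 74.2 and 84.9 TPM. The lowest values of the series, 74.2 and 79.4 TPM, were in libraries with the highest totals, and the ranges of all groups overlapped. Differences from control were -0.11 (-0.40 to 0.18) for ethanol, 0.04 (-0.25 to 0.33) for stress and -0.11 (-0.41 to 0.18) for ethanol + stress. Without the 3 libraries with the highest totals the ethanol value was -0.038, and that for ethanol + stress was 0.15, which is the 1 remaining ethanol + stress mouse, at 104 TPM, against control. The balance of the receptors, as the ratio of Nr3c2 to Nr3c1 with 0.5 TPM added to each as for all ratios here, averaged 1.84 ± 0.23 for control mice, 1.81 ± 0.13 for ethanol mice, 1.82 ± 0.13 for stress mice and 1.82 ± 0.21 for ethanol + stress mice (SD, n = 3). An exact permutation test over the 4 groups gave p = 0.998 for this ratio.

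Fkbp4, which encodes the co-chaperone that favours nuclear transport of the hormone-bound receptor, had gene sums of 126, 111 and 121 TPM in control mice and 117, 100 and 104 TPM in ethanol mice. Stress mice had 115, 114 and 107 TPM, and ethanol + stress mice had 111, 143 and 110 TPM. One ethanol + stress mouse stood above every other mouse, and the ranges overlapped. The difference was -0.16 (-0.39 to 0.08) for ethanol, -0.09 (-0.33 to 0.14) for stress and 0.01 (-0.22 to 0.25) for ethanol + stress. The interaction was 0.26 (-0.07 to 0.60), and its unadjusted limma p of 0.11 was the smallest among the interactions of the 8 genes.

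Fkbp5, the glucocorticoid-induced co-chaperone that lowers hormone binding of the receptor, had gene sums of 27.0, 27.2 and 28.7 TPM in control mice and 27.1, 25.7 and 31.9 TPM in ethanol mice. Stress mice had 29.3, 36.5 and 26.1 TPM, and ethanol + stress mice had 38.5, 26.5 and 27.6 TPM. Control values lay within 27.0 to 28.7 TPM, with 1 ethanol, 2 stress and 1 ethanol + stress mice above them and 1 mouse of each treated group below them. The difference was 0.02 (-0.32 to 0.36) for ethanol, 0.13 (-0.21 to 0.47) for stress and 0.14 (-0.20 to 0.48) for ethanol + stress. Without ethanol + stress replicate 1, the mouse with 38.5 TPM, the last difference was -0.03. That mouse alone remains without the 3 libraries with the highest totals, where the difference was 0.47 and was not called. The ratio of Fkbp5 to Fkbp4 averaged 0.235 ± 0.016 for control mice, 0.268 ± 0.038 for ethanol mice, 0.276 ± 0.041 for stress mice and 0.264 ± 0.080 for ethanol + stress mice (SD, n = 3). Its exact permutation p over the 4 groups was 0.75, and Benjamini-Hochberg adjustment over the 3 ratios tested gave 0.998.

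The sequences before the starts of Nr3c2, Fkbp5 and Fkbp4 are shown because the leading transcript of each begins within 42 bases of the RefSeq start. RefSeq tables of build GRCm38.p6 held 6 of the 8 genes, and each stretch ends at the base before the leading transcript. Capitals mark the letters of a GC box (GGGCGG) or of a heat shock element core (GAANNTTC) on either strand, which do not overlap here.
Nr3c2, chr8:76902080-76902287, plus strand: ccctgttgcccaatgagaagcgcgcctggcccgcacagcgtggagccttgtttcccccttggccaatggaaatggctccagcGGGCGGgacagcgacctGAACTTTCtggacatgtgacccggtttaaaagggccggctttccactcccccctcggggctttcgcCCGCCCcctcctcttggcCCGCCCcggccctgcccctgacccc
Fkbp5, chr17:28486150-28486399, minus strand: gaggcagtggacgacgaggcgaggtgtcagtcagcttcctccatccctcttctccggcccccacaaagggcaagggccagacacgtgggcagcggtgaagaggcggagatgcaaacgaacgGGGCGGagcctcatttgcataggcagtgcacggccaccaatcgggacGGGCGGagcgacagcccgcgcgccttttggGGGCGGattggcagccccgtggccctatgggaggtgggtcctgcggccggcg
Fkbp4, chr6:128438678-128438906, minus strand: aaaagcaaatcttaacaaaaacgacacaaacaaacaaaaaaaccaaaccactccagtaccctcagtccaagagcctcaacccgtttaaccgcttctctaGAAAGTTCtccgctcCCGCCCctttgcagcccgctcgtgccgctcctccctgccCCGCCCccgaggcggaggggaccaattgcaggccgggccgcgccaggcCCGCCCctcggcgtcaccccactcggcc
Each of the 3 holds 3 GC boxes, a motif found in 32.7% of 32851 promoters over the same 250 bases. Nr3c2 and Fkbp4 each hold 1 heat shock element core, found in 6.69% of promoters, and Fkbp5 holds none. The core of the glucocorticoid response element (ACANNNTGT, in 5.84% of promoters) was in none of the 250-base windows of these 3 genes, which says only that these letters are not there. The windows of Nr3c2, Fkbp5 and Fkbp4 were 68.4%, 68% and 63.2% G and C with 17, 23 and 25 CG pairs, where the median promoter had 52.4% and 6.

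Hsd11b1, the enzyme that turns inert 11-dehydrocorticosterone back into corticosterone inside the cell, had gene sums of 51.5, 58.5 and 51.9 TPM in control mice and 51.9, 72.8 and 46.5 TPM in ethanol mice. Stress mice had 64.6, 45.1 and 51.2 TPM, and ethanol + stress mice had 51.0, 71.2 and 71.3 TPM. The 3 values above 71 TPM were those of the 3 libraries with the highest totals, and the ranges overlapped. The difference was 0.05 (-0.35 to 0.46) for ethanol, -0.02 (-0.43 to 0.38) for stress and 0.24 (-0.16 to 0.64) for ethanol + stress, the last being the largest of the 8 genes in that comparison. With each library's trend over transcript length removed it was 0.17. Without the 3 libraries the ethanol value was -0.13, and that for ethanol + stress was -0.08, which is the 1 remaining ethanol + stress mouse, at 51.0 TPM, against control.

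In the 3 libraries with the highest totals Hsd11b1 was at 71.2 to 72.8 TPM, against 45.1 to 64.6 TPM in the 9 others, and Nr3c1 was at 45.2 to 47.5 against 47.7 to 55.2 TPM. Neither range overlapped, whereas Nr3c2 overlapped between them at 74.2 to 84.9 against 83.7 to 107 TPM. Because the 3 libraries stand apart, correlations were computed over the 9 others, for 8 genes. Hsd11b1 and the difference of short and long genes gave Pearson r = 0.70 (permutation p = 0.031, adjusted 0.187) and Spearman rho = 0.72 (permutation p = 0.0359, adjusted 0.199). Without the 2 libraries farthest from the median r was 0.49, and no gene passed the adjustment. The 7 other genes had r from -0.65 for Fkbp5 and -0.63 for Nr3c2 to 0.58 for Crhbp (adjusted permutation p = 0.187, 0.187 and 0.200), and Nr3c1 had r = -0.15 and rho = 0.083 (adjusted permutation p = 0.694 and 0.881). The part of length composition in the levels of these genes was not tested.

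**Figure D3:**
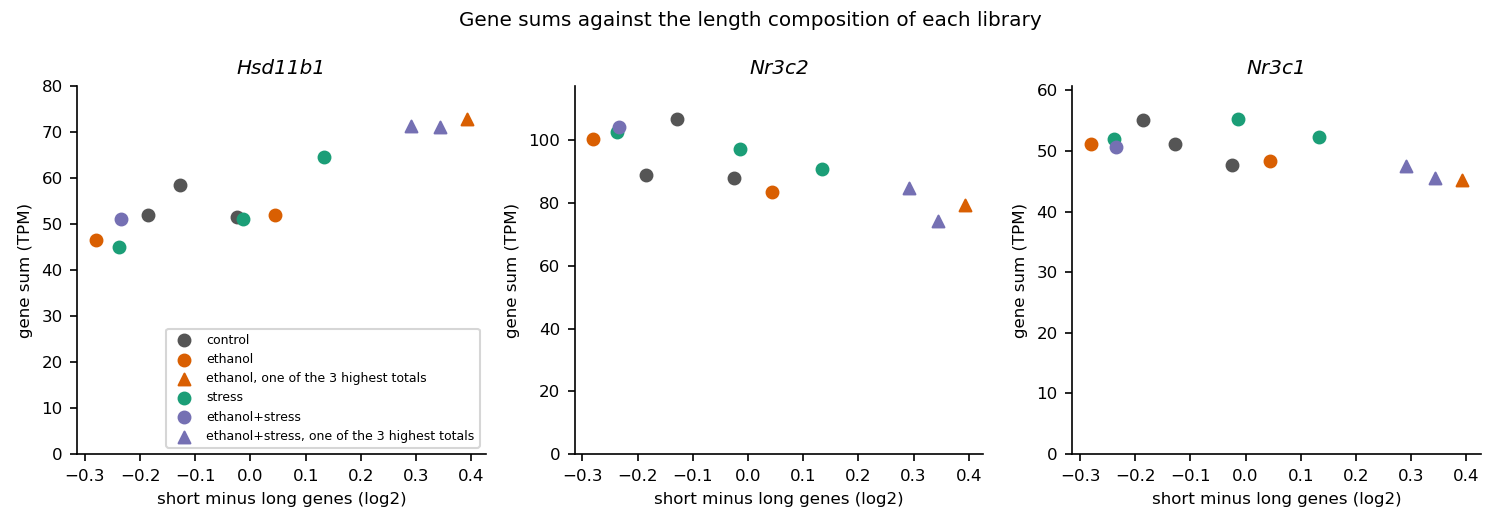
Gene sums of Hsd11b1, Nr3c2 and Nr3c1 in TPM (vertical axes, from 0) against the median deviation of genes under 1000 bp minus that of genes over 4000 bp (horizontal axis, log2) in each of 12 libraries, coloured by group. Triangles are the 3 libraries with the highest totals, which lie at 71.2 to 72.8 TPM for Hsd11b1, above all 9 others.

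Crh, the hormone itself, had gene sums of 2.48, 1.55 and 3.10 TPM in control mice and 1.90, 2.34 and 1.62 TPM in ethanol mice. Stress mice had 1.87, 2.35 and 2.39 TPM, and ethanol + stress mice had 3.02, 2.10 and 2.24 TPM. Control mice alone spanned the lowest and the highest value of the series. The intervals were wide: -0.69 to 0.29 for ethanol, -0.55 to 0.44 for stress and -0.43 to 0.56 for ethanol + stress.

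Crhr1, the receptor through which CRH acts on principal neurons, had gene sums of 8.06, 6.25 and 5.21 TPM in control mice and 7.33, 5.73 and 9.31 TPM in ethanol mice. Stress mice had 7.86, 6.47 and 7.77 TPM, and ethanol + stress mice had 7.61, 6.52 and 5.76 TPM. Every ethanol + stress and stress value lay within the control range, and 1 ethanol mouse lay above it. The differences were 0.18 (-0.25 to 0.61), 0.18 (-0.25 to 0.62) and 0.04 (-0.39 to 0.47) for ethanol, stress and ethanol + stress.

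Crhbp, a secreted protein that binds CRH and is made by interneurons, had gene sums of 34.3, 27.8 and 33.2 TPM in control mice and 31.1, 28.4 and 27.1 TPM in ethanol mice. Stress mice had 31.2, 27.7 and 30.1 TPM, and ethanol + stress mice had 27.8, 28.0 and 31.7 TPM. The 2 highest values were those of control mice, and the third control mouse lay among the treated ones. The difference was -0.14 (-0.36 to 0.09) for ethanol, -0.09 (-0.32 to 0.13) for stress and -0.12 (-0.34 to 0.11) for ethanol + stress. The ratio of Crhbp to Crh averaged 11.6 ± 2.24 for control mice, 12.1 ± 1.67 for ethanol mice, 11.3 ± 1.85 for stress mice and 10.3 ± 1.96 for ethanol + stress mice (SD, n = 3), and the exact permutation p over the 4 groups was 0.688. With 3 mice against 3, a single exact comparison cannot go below p = 0.1, and the lowest of the 9 comparisons of a ratio with control gave p = 0.2.

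**Figure D4:**
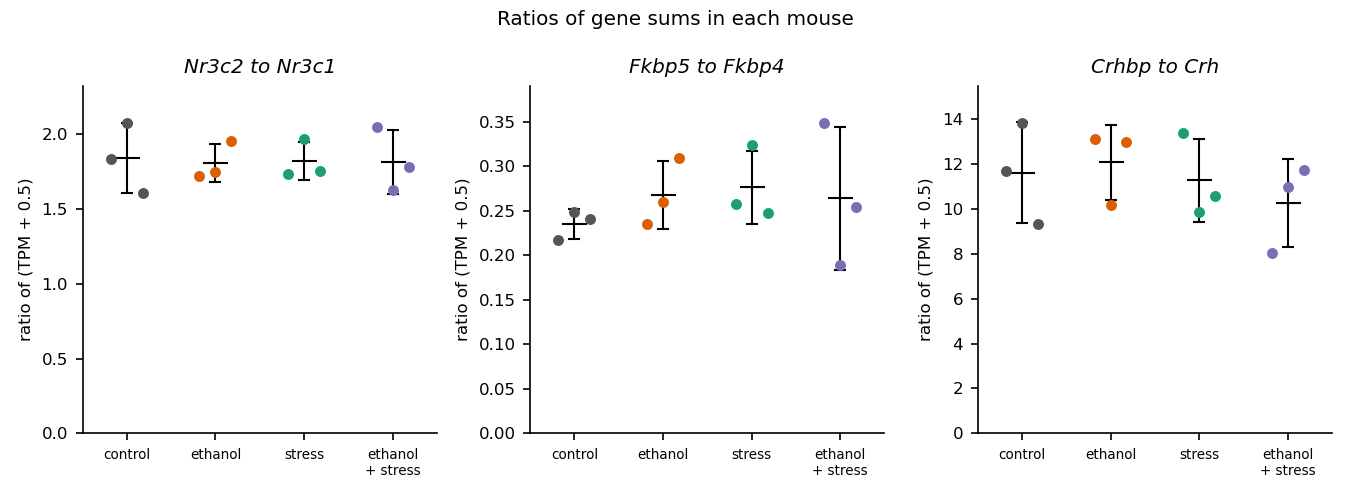
Ratios of gene sums, each with 0.5 TPM added, for Nr3c2 to Nr3c1, Fkbp5 to Fkbp4 and Crhbp to Crh (vertical axes, from 0) in the 4 groups. Points are mice, horizontal bars are means and error bars the SD (n = 3). The ratio of Nr3c2 to Nr3c1 has group means between 1.81 and 1.84, and that of Fkbp5 to Fkbp4 spreads most in ethanol + stress mice.

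The next question was whether transcripts of these genes differed where their sums did not. The 8 genes had 46 transcripts in the table, 4 of them at 0 in every library, and 29 passed the filter and were tested. None of the 29 was called for ethanol, beside 1.26% of all tested transcripts, for stress, beside 0.914%, for ethanol + stress, beside 1.21%, or for the interaction, beside 0.854%. At an unadjusted p under 0.05 in limma there were 0 for ethanol, 1 for stress, 2 for ethanol + stress and 1 for the interaction. Read pairs that fit several transcripts were divided among them by kallisto's estimate, so transcript values carry more error than gene sums.

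Hsd11b1 had 2 leading transcripts that start 21446 bases apart on the minus strand of chromosome 1 and encode the same 876 coding bases. ENSMUST00000161737.7 (7 exons, chr1:193221689-193264075) begins at the distal start and held 53.5% of the gene sum over all mice. ENSMUST00000016338.14 (6 exons, chr1:193221634-193242629) begins at the proximal start and held 44.8%. They share 1227 exon bases, and 128 bases belong to the distal and 396 to the proximal transcript of the pair. The distal transcript was 58.6, 53.2 and 56.3% of the gene sum in control mice and 47.8, 58.0 and 54.4% in ethanol mice. It was 60.4, 60.2 and 63.2% in stress mice and 40.9, 46.9 and 45.0% in ethanol + stress mice. Stress mice thus all lay above the control mice and ethanol + stress mice all below them, while ethanol mice overlapped control.

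This difference in transcript use was seen in the shares first, and a fit was then made for all genes, so the test is not independent of how it was found. For 9875 genes whose second transcript held at least 5% of the gene sum, the log2 ratio of the leading to the second transcript was compared between groups with limma. For Hsd11b1 this log2 ratio averaged 0.37 ± 0.14 for control mice, 0.22 ± 0.29 for ethanol mice, 0.75 ± 0.11 for stress mice and -0.24 ± 0.082 for ethanol + stress mice (SD, n = 3). Ethanol + stress differed from control by -0.62 (-0.96 to -0.27), with an unadjusted limma p of 0.0025, and was called. The interaction was -0.83 (-1.32 to -0.34) with an unadjusted limma p of 0.0034, and was called too. Stress differed from control by 0.37 (0.023 to 0.72) and ethanol by -0.16 (-0.50 to 0.19), and neither was called. The limma adjusted p over all 9875 genes was 0.796 for ethanol + stress and 1 for the interaction, so Hsd11b1 did not pass the correction, where it ranked 30 and 25 by p.

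Of the 6 genes with such a pair, 1 was called for ethanol + stress, beside 1.03% of all pairs, 1 for the interaction, beside 0.78%, 0 for ethanol, beside 1.25%, and 0 for stress, beside 0.952%. Ranges that did not overlap with control were found for 2 of 6 in ethanol + stress, Hsd11b1 and Fkbp5, beside 9.93% of all pairs, for 1 of 6 in stress, Hsd11b1, beside 9.63%, and for 0 of 6 in ethanol, beside 9.93%. The difference in the Hsd11b1 ratio for ethanol + stress was -0.69 without the 3 libraries with the highest totals, where 1 ethanol + stress mouse remained, and was not called there. Without control replicate 1 it was -0.54, and the interaction without control replicate 2 was -0.76, and neither was called, so each call was lost when 1 control mouse was left out. Both calls were also lost with eBayes without trend, and the interaction without the 3 libraries (-0.77). The direction held in each of these. As a level, the proximal transcript was 20.9, 26.3 and 22.6 TPM for control mice and 26.0, 37.1 and 38.6 TPM for ethanol + stress mice, a log2 difference of 0.52 (0.059 to 0.98, limma adjusted p = 0.888). One ethanol + stress mouse lay within the control range, and without it this transcript was called, with a difference of 0.70 and a limma adjusted p of 0.443, beside 2.23% of all transcripts called in that setting. The 2 mice left in it are among the 3 libraries with the highest totals, and the mouse left when those are removed differed from control by 0.16.

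**Figure D5:**
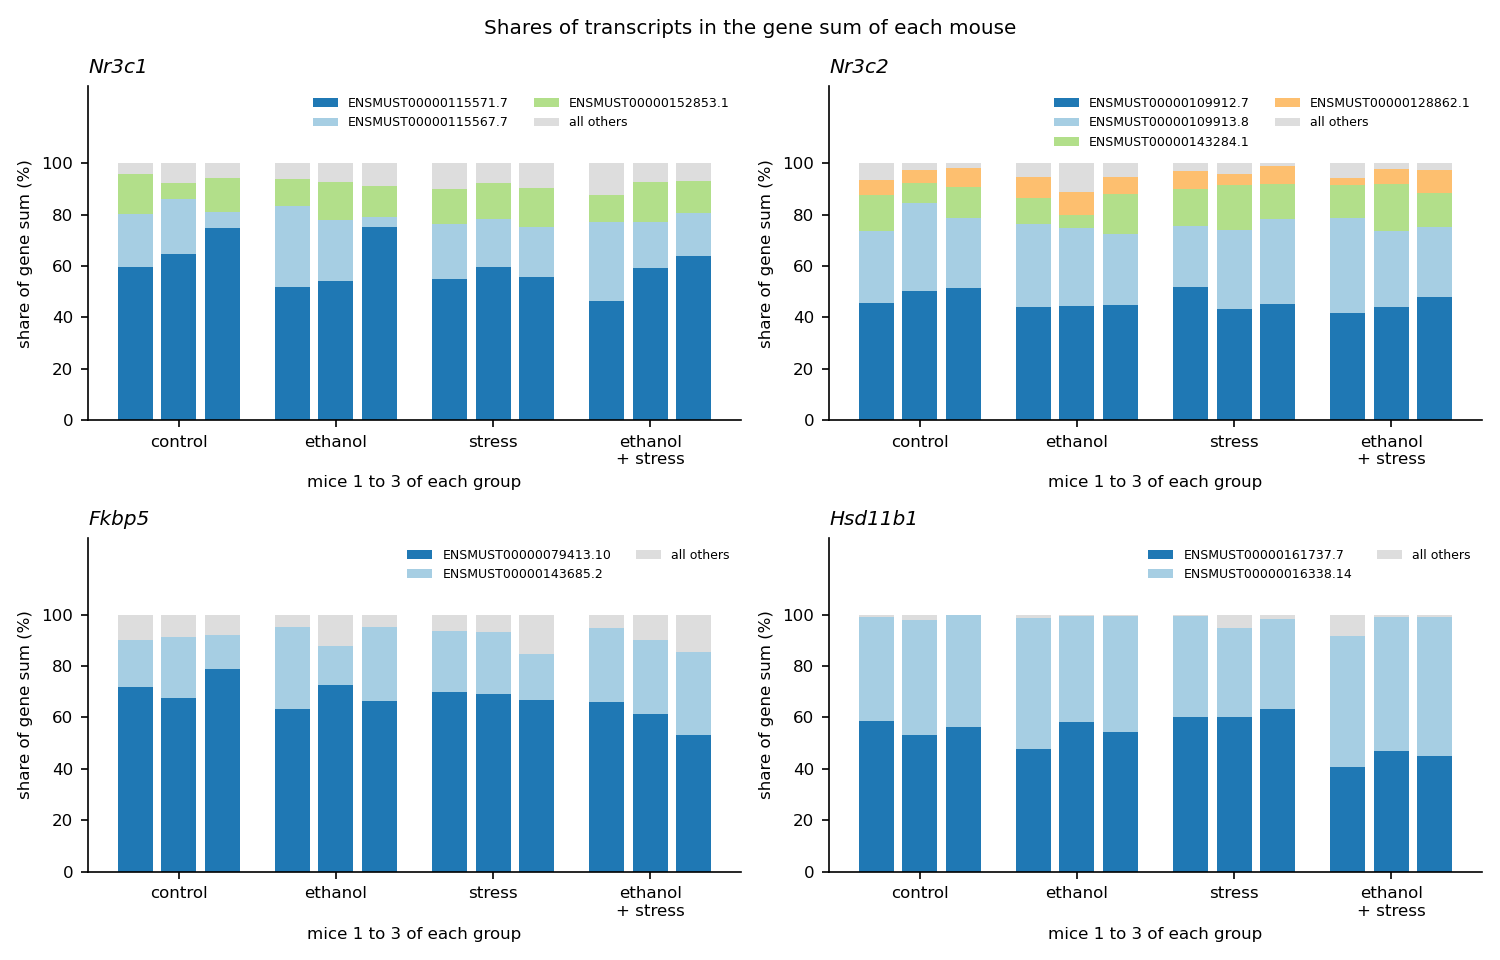
Shares of the gene sum (vertical axis, percent) held by each transcript with at least 5% of it over all mice, for Nr3c1, Nr3c2, Fkbp5 and Hsd11b1, as 1 stacked bar per mouse in the order of replicates 1 to 3 within the 4 groups. In the Hsd11b1 panel the dark bars of stress mice reach 60.2 to 63.2% and those of ethanol + stress mice 40.9 to 46.9%.

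Fkbp5 had 15 transcripts, of which 2 held at least 5%. The full-length coding transcript ENSMUST00000079413.10 (11 exons, chr17:28399094-28486149) held 67.3%, and ENSMUST00000143685.2, a 7-exon processed transcript without a coding region, held 24.1%. The share of the processed transcript was 18.2, 23.6 and 13.3% for control mice and 31.8, 15.3 and 28.7% for ethanol mice. Stress mice had 23.7, 24.0 and 17.8%, and ethanol + stress mice had 28.7, 29.1 and 32.5%. All ethanol + stress mice were above the control mice, whereas the other groups overlapped them. Its level differed by 0.82 (0.11 to 1.54, limma adjusted p = 0.888) and the log2 ratio of coding to processed transcript by -0.96 (-1.70 to -0.22, limma adjusted p = 0.903), and neither was called. For the 1 ethanol + stress mouse that remains without the 3 libraries with the highest totals, these were 1.08 and -0.75, also not called. The processed transcript rested on 19.1 to 62.4 read pairs per library and has 52 exon bases outside the coding one.

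Nr3c1 had 8 transcripts, all annotated as coding. ENSMUST00000115571.7 held 60.1%, ENSMUST00000115567.7 held 19.2% and ENSMUST00000152853.1 held 12.7% of the gene sum. The first and second encode the same 2376 coding bases and differ in their first exons, with starts 3429 bases apart. The first was 74.7% in control replicate 3 and 75.2% in ethanol replicate 3, where the second was 6.2% and 3.8%. In the 10 other mice the first ran from 46.6 to 64.5% and the second from 16.9 to 31.7%, so the 2 mice with most of the first were those with least of the second. No exon base is found in the first and not in the second, and 109 bases are found in the second alone. The ratio of the first to the second had intervals of -1.93 to 1.53 for ethanol, -2.40 to 1.06 for stress and -2.50 to 0.96 for ethanol + stress. A short transcript of Nr3c1, ENSMUST00000131885.1, had values of 0.794, 0.436 and 1.65 TPM for control mice and 1.79, 2.99 and 2.18 TPM for stress mice, a log2 difference of 1.01 (0.059 to 1.97, limma adjusted p = 1). It is named after its values were seen, rested on 0.995 to 6.99 read pairs per library, and was not called.

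Nr3c2 had 4 transcripts of at least 5%. ENSMUST00000109912.7 (9 exons) held 46.2% and ENSMUST00000109913.8 (9 exons) held 30.2%, with the same 2940 coding bases and starts 2516 bases apart. Their ratio differed from control by -0.16 (-0.63 to 0.30) for ethanol, -0.04 (-0.51 to 0.43) for stress and -0.21 (-0.68 to 0.26) for ethanol + stress. The short transcripts ENSMUST00000143284.1 and ENSMUST00000128862.1 held 12.9% and 6.34%, and the first of them rested on 2.2 to 10.3 read pairs per library, where the floor is 3.

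Fkbp4 was mostly ENSMUST00000032508.10 (10 exons), with 79.2%, and ENSMUST00000150387.7, with 16%. The second was 19.0, 21.3 and 26.6 TPM for control mice and 27.4, 15.0 and 7.00 TPM for ethanol mice, a log2 difference of -0.61 (-1.44 to 0.21). Without ethanol replicate 1, the mouse at 27.4 TPM, the difference was -1.07 and was called (limma adjusted p = 0.775). Beside it, 706 of all 59852 transcripts were called in that setting. Crhbp was 94.1% ENSMUST00000221025.1 (7 exons), and ENSMUST00000045583.8, with 5.86%, was listed at 0 in 2 mice. Crh (ENSMUST00000061294.4, 2 exons, chr3:19693401-19695396) and Crhr1 (ENSMUST00000093925.4, 13 exons, chr11:104132855-104175523) had 1 transcript each, so their values are those of the gene.

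Partners and targets of these genes were counted in 5 lists of 69 genes, 59 of which were tested. For ethanol 0 of 59 were called, beside 0.678% of all genes, for stress 0, beside 0.51%, and for the interaction 0, beside 0.461%. For ethanol + stress 1 of 59 was called, beside 0.971%. In the list of the receptor chaperone complex, 12 of 12 were tested and none was called, and their median difference was -0.05 for ethanol, -0.02 for stress and -0.01 for ethanol + stress. Among genes of steroid synthesis, reactivation and transport 6 of 12 were tested and none was called, with medians of 0.18 for ethanol, -0.01 for stress and -0.03 for ethanol + stress. Of the untested ones, Hsd11b2, the enzyme that inactivates corticosterone, was at or under 0.204 TPM in every mouse. Among CRH relatives, vasopressin and pituitary-adrenal genes 11 of 15 were tested and none was called, with medians of -0.08, -0.02 and -0.10 in the same order. The urocortin gene Ucn reached at most 0.708 TPM, and Ucn2 and Ucn3 were listed at 0 in every mouse. All 13 receptor coregulators and other steroid receptors were tested and none was called, with medians of -0.04, -0.05 and -0.13.

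Of the 17 glucocorticoid-induced targets, 1 was called higher in ethanol + stress mice and none lower, and their median difference was -0.03 for ethanol, -0.09 for stress and 0.10 for ethanol + stress. The called gene was Mt2, a metallothionein that binds zinc and is induced by glucocorticoids, metals and inflammation. Mt2 was at 184, 104 and 161 TPM for control mice and 187, 205 and 110 TPM for ethanol mice. Stress mice had 110, 156 and 181 TPM, and ethanol + stress mice had 238, 295 and 365 TPM. All 3 ethanol + stress mice lay above the 9 other mice. For ethanol + stress against control, 10.2% of all genes did not overlap in either direction, and the percent lying above all 9 others was not computed. The log2 difference was 1.02 (0.41 to 1.63), with a limma p of 0.00355 and an adjusted p of 0.791. It was 0.77 without control replicate 2, 0.86 without ethanol + stress replicate 3 and 1.02 without ethanol + stress replicate 2, and was called in none of these. The 1 ethanol + stress mouse that remains without the 3 libraries with the highest totals differed from control by 0.71, also not called. Of the 17 targets 10 had a positive and 7 a negative difference in the same comparison. The lowest was Dusp1, a phosphatase gene, at -0.72 (-1.29 to -0.15, limma adjusted p = 0.791), which was not called. Other genes of the 5 lists were called only when 1 mouse was left out, or under other settings for Dusp1. Without stress replicate 1, Nr4a1 (-1.19) and Dusp1 (-0.88) were called lower for stress, beside 100 of 18434 genes called in that setting. Without ethanol + stress replicate 1, Hspa4 (-0.55) and Pcsk2 (-0.49) were called lower for ethanol + stress, beside 4.14% of all genes. The latter calls rest on ethanol + stress replicates 2 and 3, both among the libraries with the highest totals, and for the other mouse of the group the differences were 0.062 and 0.095. Dusp1 was also called lower for ethanol + stress after rescaling to the same total (-0.85), beside 118 of 18428 genes. With only the groups compared in the fit it was called too (-0.72), beside 169 of 18434 genes. For the interaction, Arrdc2 (1.01) was called without ethanol + stress replicate 1, beside 0.759% of all genes. Among ethanol + stress mice this call rests on replicates 2 and 3, at 6.72 and 4.30 TPM, where replicate 1 had 3.36 TPM. Sgk1 (1.07) and Cyp11a1 (-1.13) were called without ethanol + stress replicate 3, beside 100 of 18434 genes.

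The genes whose pattern over the 12 mice was most like that of each of the 8 were found among 14454 genes with a mean of 1 TPM or more, by Pearson r of log2 values, as a description. Nr3c2 was followed most closely by Pcdh8 (r = 0.97), Ago1 (0.96) and Kalrn (0.95), and Nr3c1 by Impad1 (0.95), Snn (0.94) and Exph5 (0.92). Hsd11b1 was nearest to Rpl21, Arpc5l and Psma4, each at r = 0.97 and each with a mean length of 1136 to 1315 bp. Crhbp was nearest to Cdh7 (0.89), Tac1 (0.88), a neuropeptide gene of interneurons, and Tox2 (0.81). Fkbp5 was nearest to Olfml2b (0.93), Sart3 (0.91) and Atf6 (0.91), and Fkbp4 to Dnajb2 (0.92), a co-chaperone gene, Pla1a (0.91) and Cdkl2 (0.86). Crhr1 was nearest to Atp6v0e2 (0.93), Stac (0.87) and Zfr2 (0.85), and Crh to Oaz3 (0.82), Mogat1 (0.82) and Gm43110 (0.81). The 12 points share the libraries and their length composition, and these genes were picked as the most alike of many.

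Over the 9 libraries other than those with the highest totals, the 8 genes were also set beside summed markers of 15 cell types, brain regions and states, in 120 pairs. None passed the adjustment, 8 had an unadjusted permutation p under 0.05, and the smallest adjusted p was 0.0576, for Hsd11b1 with markers of thalamus (Pearson r = 0.93, Spearman rho = 0.93, permutation p = 0.00048 for r), whose sum was 20.5 to 33.9 TPM. This r was 0.75 without the 2 libraries farthest from the median, and over all 12 libraries r was 0.53 and rho 0.76 (adjusted permutation p = 0.346 and 0.0972). The next smallest was for Crhbp with interneuron markers (r = 0.88, rho = 0.77, permutation p = 0.00278, adjusted 0.167), with r = 0.74 and rho = 0.43 over all 12 (adjusted permutation p = 0.0739 and 0.477). Hsd11b1 with astrocyte markers gave r = 0.58 and rho = 0.77 (permutation p = 0.0895 for r, adjusted 0.678), and with CA3 pyramidal cell markers r = 0.58 and rho = 0.60 (permutation p = 0.0972 for r, adjusted 0.678). Over all 12 libraries, where the 3 with the highest totals stand apart, these pairs passed for r, with r = 0.86 and rho = 0.88 for astrocytes (adjusted permutation p = 0.0162 and 0.0372) and r = 0.88 and rho = 0.81 for CA3 (adjusted permutation p = 0.0162 and 0.0801). They were the only 2 of the 120 pairs to do so, and neither passed within the 9 libraries.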

How the data were processed

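RNA-Seq values of the hippocampus of 12 mice in 4 groups of 3 were analysed, as grouped by the labels. The authors assigned paired-end reads of stranded, rRNA-depleted libraries to transcripts with kallisto and scaled the TPM between libraries with sleuth, and the deposited values are that signal. The submitters' notes also name CASAVA and build mm10, and versions are not given in the sources used here. GENCODE vM21 holds 113580 of the 115270 transcript identifiers, 112441 with the same version.

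TPM are not counts. From low values of genes with 1 transcript a step worth 1 read pair was found per library, and 77.1% to 82.9% of those values were whole within 0.1 of a read pair. The depth so recovered served for floors of 3 read pairs only, which cover counting error alone.

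Features reaching 0.1 TPM in 6 of 12 libraries entered lmFit and eBayes with trend of limma 3.58.1, as log2(TPM + 0.5), in R 4.3.3, in 1 model of the 4 groups without a replicate block, two-sided. Calls are unadjusted p under 0.01, and p were adjusted after Benjamini-Hochberg for every feature in the fit. Folds on this scale understate changes of low genes. Ratios of gene sums were tested by exact permutation, two-sided, over 369600 assignments to 4 groups or 3 mice against 3, and correlations with 100000 permutations. On simulated data for ethanol against control, limma called 89% of genes given a log2 change of 1 and 98% of those given 2. It called 1.12% of unchanged ones, with 18434 genes in the fit. For transcripts these values were 61%, 86% and 1.09% over 59852, and for the ratio of leading transcripts 38%, 82% and 1.18% over 9875 genes. Changed genes and transcripts were drawn from those with a mean of 1 TPM or more. Noise was drawn independently for each feature and library, so differences in totals or length composition between libraries were not simulated. Tables were made with Python 3.11.15.

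Same-numbered mice of different groups were checked for pairing: correlations of their deviations from group means ran from -0.17 to 0.16, and 1 of 18 was above 0.1, so the numbers were not taken as pairs. The 8 genes, the lists and the named transcripts were chosen with earlier results of these data known. Named were all 8 genes, their transcripts with at least 5% of the gene sum, any transcript or list gene called, and the 3 most alike genes each; transcripts with an unadjusted p under 0.05, list genes called only under an alternative and list genes at or near 0 were added after their values were seen. Alternatives were a pseudocount of 0.1 or 1, no filter, a minimum of 1 TPM, other scalings, eBayes without trend, only the groups compared, a replicate block and leaving out each mouse. Removal of the length trend, leaving out the 3 libraries with the highest totals and the ratio of leading transcripts were added after seeing the data.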

Additional observations from a re-analysis of the deposited data

Results flagged for a closer look

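The log2 ratio of the distal to the proximal Hsd11b1 transcript was flagged because the estimated effect of stress differed without and with ethanol. The interaction was -0.8318 with an unadjusted limma p of 0.0034 and an adjusted p of 1 over 9875 genes, and did not pass correction. It was not called with eBayes without trend, without control replicate 2 (-0.76) or without the 3 libraries with the highest totals (-0.77). The ratio was higher in 3 of 3 stress mice than in any control mouse, where 9.63% of all pairs did not overlap. It was lower in 3 of 3 ethanol + stress mice than in any ethanol mouse, and the percent over all pairs was not computed. It was the only flagged result, and it was examined because the shares had been seen to differ.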

How the results depend on the processing

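No gene sum of the 8 was called under any alternative, where 24 differences from control gave 408 values with a smallest limma p of 0.0263. Without single libraries, 0 to 1 member transcripts were called for ethanol and 0 to 1 for ethanol + stress. The 1 for ethanol came without ethanol replicate 1, beside 706 of all 59852 transcripts. The 1 for ethanol + stress came without ethanol + stress replicate 1, beside 1337 of 59852. Without the 3 libraries with the highest totals, ENSMUST00000045583.8 of Crhbp differed from control by -2.01 in the 1 remaining ethanol + stress mouse. That setting leaves 1 ethanol + stress and 2 ethanol mice in every result below, and the lone mouse is assumed to vary like the other groups. With a replicate block 0 member genes and 0 member transcripts were called in any comparison, and the block changed no call of Mt2 or of the Hsd11b1 transcript ratio.

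The Hsd11b1 transcript ratio kept its direction. For ethanol + stress it was -0.62 with eBayes without trend, -0.69 without the 3 libraries (not called under either) and -0.68 to -0.54 without single ones. The interaction was -0.83 with eBayes without trend, -0.77 without the 3 libraries (not called under either) and -0.99 to -0.70 without single ones.

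Uncalled differences changed sign. Rescaled to the same total, which moved the median of all genes for ethanol + stress from 0.023 to -0.092, they were -0.056 for Fkbp5 and -0.026 for Hsd11b1 in ethanol, and -0.12 for Fkbp4, -0.044 for Crh and -0.087 for Crhr1 in ethanol + stress. With median-of-ratios scaling Fkbp4 was -0.0087, and with the length trend removed Fkbp4 was -0.028 and Crh -0.029. Without the 3 libraries Nr3c2 was 0.15, Fkbp4 -0.10 and Hsd11b1 -0.079 in ethanol + stress, and Hsd11b1 -0.13 in ethanol. Without single libraries, differences for ethanol were -0.066 to 0.088 for Fkbp5 and -0.13 to 0.19 for Hsd11b1. For stress they were -0.00043 to 0.10 for Nr3c1, -0.0082 to 0.13 for Nr3c2, -0.0010 to 0.24 for Fkbp5, -0.16 to 0.093 for Hsd11b1 and -0.28 to 0.13 for Crh. For ethanol + stress they were -0.031 to 0.23 for Fkbp5, -0.11 to 0.078 for Fkbp4, -0.16 to 0.24 for Crh and -0.10 to 0.19 for Crhr1. Log2 ratios of Nr3c2 to Nr3c1 differed by -0.11 to 0.073 for ethanol, -0.10 to 0.080 for stress and -0.11 to 0.074 for ethanol + stress, those of Crhbp to Crh by -0.082 to 0.20 for ethanol and -0.19 to 0.10 for stress, and that of Fkbp5 to Fkbp4 by -0.10 to 0.34 for ethanol + stress. The causes were not tested.

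Calls over all genes moved by more than 1.5 times, as counts, from 125 to 198 (ethanol) and 85 to 131 (interaction) with no filter. That setting tested 24617 genes, against 18434 in the main fit. With a minimum of 1 TPM, calls among 14359 genes were 69 for ethanol, 42 for stress and 48 for the interaction. Among 35225 transcripts, against 59852 in the main fit, they were 318, 236 and 209, with 356 for ethanol + stress. For ethanol + stress 179 became 118 after rescaling to the same total, 763 without ethanol + stress replicate 1, 118 without replicate 2 and 114 without control replicate 3, and for transcripts 726 became 1337 without ethanol + stress replicate 1. Interaction calls were 130 without the 3 libraries and 140 without ethanol + stress replicate 1.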
